A study of Mus musculus with 8 samples.

Results

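The 69 genes described here encode the ligands and receptors of the classical axon guidance families, measured in Neuro2a cells, a mouse neuroblastoma line. They were chosen by gene name from the 55367 genes of the deposited count table: the semaphorins of classes 3 to 7 (20 genes), their plexin (9) and neuropilin (2) receptors, the ephrins (8) and Eph receptors (14), the netrins (4) and the netrin receptors Unc5a to Unc5d and Dcc (5), and the Slits (3) with their Robo receptors (4). All 69 are protein coding and have the same coordinates in GENCODE M21 on GRCm38 (mm10). The cells were transfected for CRISPR activation (CRISPRa), in which a catalytically inactive Cas9 carries an activator to a site set by a single guide RNA (sgRNA), here in a study directed at the sodium channel gene Scn2a. The CRISPRa group received 750 ng of sgRNA plasmid with 750 ng of a plasmid for sadCas9-VP64, the inactive Staphylococcus aureus enzyme joined to the VP64 activator. The control group (no sgRNA) received sadCas9-VP64 alone, in an amount the labels do not state, so both groups carried the activator and the labels name no other plasmid for the controls. The labels list 8 samples and counts were analysed for 6 of them, namely replicates 2, 3 and 5 of CRISPRa followed by 2, 3 and 4 of the control. Values are given in that order throughout. Nothing in the labels says whether replicates came from separate cultures, so p-values measure only the spread between these libraries, which may be technical.

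Axon guidance molecules steer growing neurites by attraction and repulsion. Semaphorins act through plexins, and the secreted class 3 members mostly need a neuropilin as co-receptor. Netrins attract through Dcc and repel through Unc5 receptors, Slits repel through Robos, and ephrins, which stay bound to the membrane, signal at cell contacts through the Eph receptor tyrosine kinases. In the sympathetic lineage from which neuroblastoma arises, several of these systems guide migrating neural crest cells and sympathetic axons.

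Total counts were between 29739422 and 34248514 per library. Of the 15 neuroblastoma and neuronal markers examined, 12 had a mean of at least 1 CPM (the count scaled to the library total). Nefl and Nefm were at or near 0. In edgeR 2 markers were lower with CRISPRa, Phox2a and Hand2, and 2 were higher, Tubb3 and Chga. The summed level of the 15 was lower, at 1754 to 1990 CPM with CRISPRa against 2005 to 2126 CPM. The part of this difference in the results below was not tested. Scn2a stood at 7.80, 8.58 and 7.16 CPM with CRISPRa and at 6.26, 6.49 and 4.02 CPM without the guide, a log2 fold change of 0.48 (SE 0.19) that did not pass the threshold (edgeR adjusted p 0.0899). All 20 listed interferon-stimulated genes were higher with CRISPRa, from a summed 280.4 to 310.1 CPM without the guide to between 2569.6 and 3031 CPM with it. The part of that response in the results below was not tested. The summed level of 6 fibroblast markers was also lower, at 14.7 to 21.5 CPM with CRISPRa against 28.8 to 31.7 CPM, carried mostly by Pdgfra and Col1a2, with Col3a1 at 0 counts, and the part of these cells or genes in the results was not tested either. Among the members, CRISPRa replicate 5 stood apart: it was the library farthest from the other 2 of its group for 31 of the 46 expressed members, against 9 for CRISPRa replicate 3 and 6 for CRISPRa replicate 2. In the control group these numbers were 14, 14 and 18. Estimates of the 8 decreases, and of other members that this library moved, are therefore given with and without it.

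Which members did Neuro2a cells express? A mean of at least 0.5 CPM over the 6 libraries was reached by 46 of the 69 genes, 27 of 35 ligands and 19 of 34 receptors. The threshold fell in a gap. Just below it were Epha2 (0.258 CPM) and Sema7a (0.299 CPM), and just above it Plxnb3 (0.924 CPM), Epha8 (0.933 CPM) and Ntn5 (0.936 CPM). Of the 23 genes below it, 11 had 0 counts in every library, and no gene below it exceeded 18 counts in any library. A count of 0 allows up to 3 counts, which was a floor of 0.0876 to 0.101 CPM in these libraries. This floor covers counting error only, since reads of one molecule are not independent.

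The families differed in how many of their members were present. All 3 Slit genes were expressed and none of the 4 Robo receptors was. Robo1, the receptor most often paired with Slits in growing axons, had 0 counts in every library, Robo2 had 0, 4, 0, 0, 2 and 2 counts, Robo3, a form that modulates Slit responses, had 10, 0, 1, 1, 1 and 4, and the endothelial Robo4 had 2, 0, 0, 0, 6 and 0. Among netrin receptors Unc5a, Unc5b and Unc5c were expressed, while Dcc was found only as 6 counts in CRISPRa replicate 5 and Unc5d only as 6 counts in CRISPRa replicate 3. Of 14 Eph receptors 6 were expressed, with 0 counts in every library for Epha3, Epha5, Epha6, Ephb2 and Ephb6. All 5 ephrin-A genes were expressed and 2 of the 3 ephrin-B genes, with Efnb1 at 0 counts throughout. Of the 9 plexins 8 were expressed, Plxna2 being the exception with at most 3 counts, and both neuropilins were. Among semaphorins all 6 of class 4 and all 4 of class 6 were expressed, 4 of the 7 secreted class 3 genes, and neither class 5 gene.

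Levels between genes were compared per length, as RPKM, the CPM divided by the gene's summed exon length in kilobases. The deposited length sums the exons of all transcript forms of a gene. In the control libraries Slit3, a secreted repellent, was the highest member at 78.7 ± 0.644 RPKM (SD, n = 3), above 96.7% of tested genes. Unc5b, a repulsive netrin receptor, followed at 67.1 ± 4.63 RPKM. The next 4 were plexins whose ranges ran into one another, Plxnb2 (31.0 ± 1.01), Plxnd1 (29.1 ± 0.993), Plxna1 (26.6 ± 3.43) and Plxna3 (26.3 ± 4.93 RPKM), with the ephrin Efna5 close to them at 25.8 ± 1.26 RPKM and Nrp2 at 18.2 ± 1.05 RPKM (SD, n = 3 for each). At the other end, 14 expressed members stood below 1 RPKM.

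Per length, a single gene carried most of the signal in the Slits, netrins, netrin receptors, neuropilins and ephrins. Slit3 made up 88.3% ± 0.316 of the summed Slit RPKM in the controls, Ntn3 made up 87.4% ± 2.15 of the netrins, Unc5b 79.9% ± 0.392 of the netrin receptors, Nrp2 70.6% ± 2.01 of the neuropilins and Efna5 70.5% ± 0.382 of the ephrins (SD, n = 3). These shares depend on the summed exon length, 6067 bases for Slit3 against 25433 for Slit2 and 6258 for Unc5b against 19135 for Unc5c. In mean control CPM, without length, Slit3 held 478 of 672 for the Slits. Unc5b held 419.6 and Unc5c 269 of 701 for the netrin receptors. Ntn3 held 25.4 of 28.1 CPM, Nrp2 216 of 291 and Efna5 104 of 128 in their families. Netrin-1, the founding axon attractant encoded by Ntn1, was nearly silent at 0.275 ± 0.106 RPKM. Semaphorins were spread more evenly, with Sema4c at 19.4% ± 0.622, Sema6a at 15.8% ± 0.564 and Sema4d at 14.9% ± 0.854 of the family. The summed level of the 14 Eph receptors was 3.30 ± 0.247 RPKM in the controls, against 36.6 ± 1.96 RPKM for the 8 ephrins. Semaphorins summed to 71.6 ± 0.279 RPKM and plexins to 127 ± 9.93 RPKM (SD, n = 3).

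**Figure D1:**
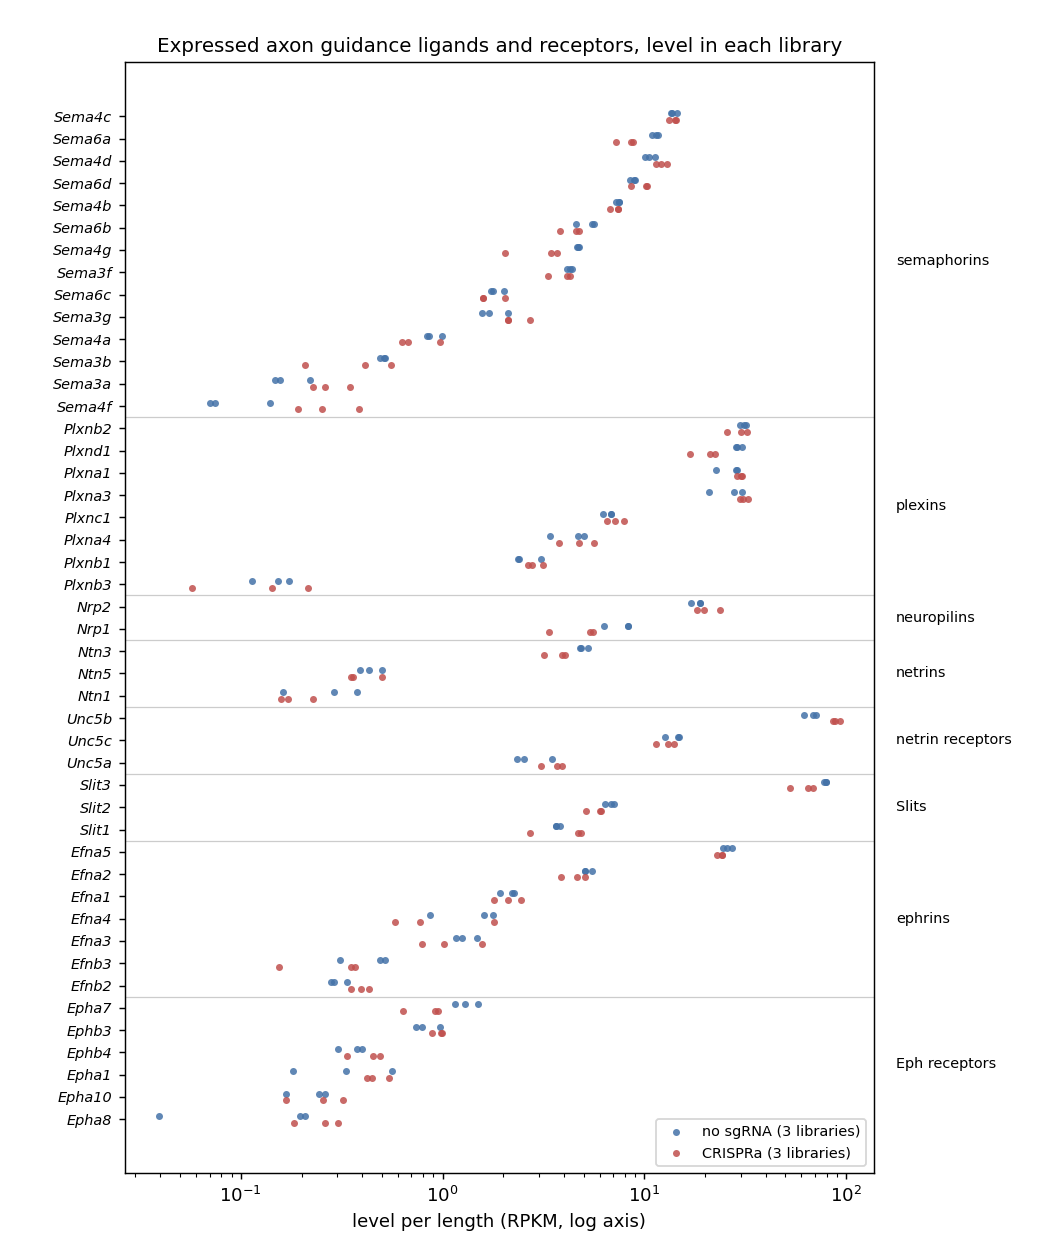
Level of the 46 expressed members in each of the 6 libraries, in RPKM on a log axis, grouped by family and ordered by the control mean; blue points are the 3 no-sgRNA libraries and red points the 3 CRISPRa libraries. Slit3 and Unc5b lie farthest right, no Robo gene appears because none was expressed, and for most members the points of both groups lie close together.

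The comparison of CRISPRa with no sgRNA asked which members differed between the groups. Of the 47 members that passed the filter on low counts (the 46 expressed genes and Sema7a), 10 passed an adjusted p of 0.05 in edgeR's quasi-likelihood test with Benjamini-Hochberg adjustment over all 15117 tested genes. Of these, 2 were higher with CRISPRa, Unc5b and Sema4f, and 8 were lower, Nrp1, Plxnd1, Epha7, Sema4g, Sema6a, Ntn3, Slit3 and Slit2. The 10 of 47 (21.3%) compare with 18.7% of all tested genes, so the share called among the members was near the background. By direction the background was 9.47% higher and 9.25% lower. The median log2 fold change was -0.06 over the tested members and -0.0071 over all tested genes, and the median absolute change was 0.23 against 0.20. An unadjusted p under 0.05 was reached by 16 of the 47 tested members and by 4725 of all 15117 tested genes. In bulk RNA a lower level can come from fewer cells that express a gene or from less RNA per cell, and these cannot be told apart.

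**Figure D2:**
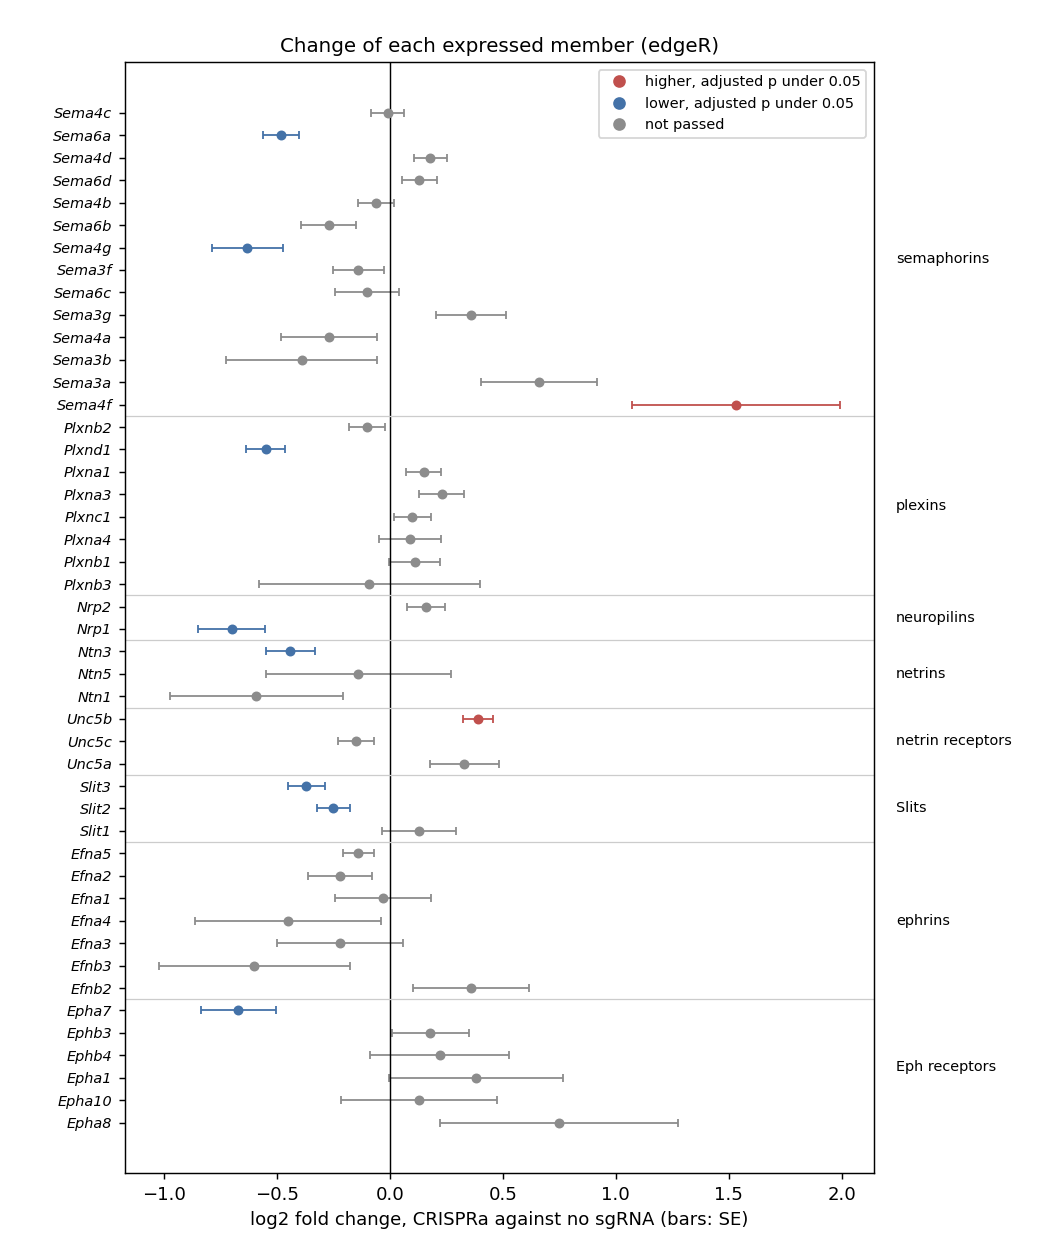
Fitted log2 fold change of each expressed member, CRISPRa against no sgRNA, with its SE as a bar, grouped by family; red marks the 2 members that were higher at an adjusted p under 0.05, blue the 8 that were lower and grey the rest. Sema4f has the largest estimate at 1.53 and a wide bar, and the called decreases lie between -0.70 and -0.25.

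Promoter sequence is shown for the 4 called members whose RefSeq start (GRCm38.p6) equals the gene start in the count table, 2 that rose and 2 that fell. Each line gives the 250 bases before the start, 5′ to 3′ on the gene's strand. Capitals mark the GC box GGGCGG, on either strand, a common binding sequence of Sp family factors. The windows are chr10:60831582-60831831 for Unc5b, chr6:82939770-82940019 for Sema4f, chr6:115995006-115995255 for Plxnd1 (all minus strand) and chr4:28812881-28813130 for Epha7 (plus strand).
Unc5b: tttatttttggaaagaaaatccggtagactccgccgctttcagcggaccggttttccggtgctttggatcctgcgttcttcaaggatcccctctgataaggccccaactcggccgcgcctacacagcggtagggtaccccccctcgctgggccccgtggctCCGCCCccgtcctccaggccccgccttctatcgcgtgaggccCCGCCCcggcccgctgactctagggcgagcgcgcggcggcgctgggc
Sema4f: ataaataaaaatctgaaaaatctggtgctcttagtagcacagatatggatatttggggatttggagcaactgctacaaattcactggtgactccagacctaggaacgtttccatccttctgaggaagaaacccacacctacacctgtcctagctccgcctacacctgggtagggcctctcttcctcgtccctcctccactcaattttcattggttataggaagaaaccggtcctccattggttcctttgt
Plxnd1: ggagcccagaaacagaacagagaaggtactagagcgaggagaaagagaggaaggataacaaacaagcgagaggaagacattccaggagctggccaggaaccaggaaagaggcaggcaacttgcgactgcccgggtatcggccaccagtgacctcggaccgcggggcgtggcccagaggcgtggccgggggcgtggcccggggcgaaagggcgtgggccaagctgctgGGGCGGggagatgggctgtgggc
Epha7: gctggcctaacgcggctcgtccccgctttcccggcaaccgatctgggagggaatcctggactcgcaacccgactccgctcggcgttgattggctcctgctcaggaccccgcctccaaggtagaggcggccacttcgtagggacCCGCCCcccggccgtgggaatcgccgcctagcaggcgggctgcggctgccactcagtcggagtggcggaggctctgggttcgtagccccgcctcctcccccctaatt
The Unc5b window held 2 GC boxes, the Plxnd1 and Epha7 windows 1 each and the Sema4f window none, with GC contents of 66.8%, 64.8%, 69.2% and 46.0% against a median of 52.4% over all 32851 RefSeq windows. A GC box stood in 32.7% of all windows. By gene, 35.4% of all genes and 44 of the 59 members with a window held at least 1. The core of the interferon-stimulated response element, GAAA followed by any 2 bases and GAAA again, was searched on both strands because interferon-stimulated genes rose in these cells. It was in none of the windows of the 9 called members that have one. It was in those of 2 expressed members, Plxnc1 and Sema6b, neither of which passed. Over all windows its share was 2.98%, and 3.46% of all genes held it. TATAAA stood in 12.4% of all windows, for 14.3% of all genes, and, among called members, in that of Slit2. The searched motifs do not overlap in the windows shown.

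Among the receptors of netrins, Unc5b rose, and Unc5a and Unc5c did not pass over all 6 libraries. Unc5b (chromosome 10, 60762593 to 60831581, minus strand) encodes a receptor that mediates repulsion by netrin and also acts in vascular branching. It stood at 536, 548 and 579.9 CPM with CRISPRa and at 426, 445 and 388 CPM without the guide. The lowest CRISPRa library exceeded the highest control, with no single library far from the rest of its group. The fitted change was 1.31-fold, or a log2 fold change of 0.39 ± 0.06 (SE) with an edgeR adjusted p of 0.000822. Unc5c, the next most abundant receptor of the group, stood at 251, 269 and 219 CPM against 281, 284 and 243 CPM, and its groups overlapped (log2 fold change -0.15, edgeR adjusted p 0.233). It passed as lower once the gene-length trend was removed (-0.29, edgeR adjusted p 0.00921). Unc5a overlapped as well, at 12.8, 16.3 and 15.3 CPM against 9.78, 14.5 and 10.6 CPM (0.33, edgeR adjusted p 0.157), and passed as higher without no-sgRNA replicate 3 (0.52, edgeR adjusted p 0.0432). The summed netrin receptor level was 102, 106 and 108 RPKM with CRISPRa and 85.1, 89.5 and 77.2 RPKM without the guide, and Unc5b held 84.4% ± 1.51 of it with CRISPRa.

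On the ligand side of this system Ntn3 fell. Ntn3 (chromosome 17, 24203848 to 24209531, minus strand) encodes netrin-3, a secreted laminin-related cue. It was at 20.7, 19.9 and 16.2 CPM with CRISPRa and 26.8, 24.5 and 24.8 CPM in the controls, without overlap, which gave a log2 fold change of -0.44 ± 0.11 (SE) with an edgeR adjusted p of 0.0114, and -0.33 without CRISPRa replicate 5 (0.0403). Exons of other genes cover 2.72% of Ntn3 on the opposite strand and 1.74% on its own strand, and whether counting used the strand is not given in the sources used here. Ntn1 was low in every library, at 0.993, 1.08 and 1.43 CPM against 1.02, 1.82 and 2.35 CPM, and did not pass (edgeR adjusted p 0.317). Ntn5, at 0.775 to 1.11 CPM in every library, did not pass either, and 23.4% of its exon length lies opposite another gene.

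Of the 3 Slits 2 changed, both lower. Slit3 (chromosome 11, 35121224 to 35708507, plus strand) stood at 392, 413 and 318 CPM with CRISPRa and at 479, 481 and 473 CPM without the guide. The control values lay within a few CPM of each other and above all CRISPRa libraries, of which replicate 5 was the lowest. The log2 fold change was -0.37 ± 0.08 (SE), with an edgeR adjusted p of 0.00610, and -0.26 without CRISPRa replicate 5 (edgeR adjusted p 0.0119). Slit2 (chromosome 5, 47983138 to 48307733, plus strand) was at 155, 153 and 131 CPM against 174, 180.1 and 162 CPM, which gave a log2 fold change of -0.25 ± 0.07 (SE) with an edgeR adjusted p of 0.0268. The call was lost without CRISPRa replicate 5 (-0.17, edgeR adjusted p 0.105), without no-sgRNA replicate 2 (-0.25, 0.0659) and without no-sgRNA replicate 3 (-0.22, 0.116). With the gene-length trend removed the estimate for Slit2 was -0.44 (edgeR adjusted p 0.000589).

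Slit1, the third member, did not pass. It stood at 27.9, 28.6 and 16.0 CPM with CRISPRa, so that replicates 2 and 3 lay above and replicate 5 below the controls at 22.5, 21.5 and 21.6 CPM. The test over all 6 libraries gave a log2 fold change of 0.13, with an edgeR adjusted p of 0.646, and without CRISPRa replicate 5 it gave 0.36 (edgeR adjusted p 0.0209). The summed Slit level was 75.3, 78.9 and 60.2 RPKM with CRISPRa against 89.5, 90.0 and 88.0 RPKM, while the Robo genes summed to at most 0.0537 RPKM in any library.

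Among semaphorin receptors, Nrp1 and Plxnd1 fell while Nrp2 and the other 7 expressed plexins did not pass. Nrp1 (chromosome 8, 128358604 to 128503363, plus strand) encodes a co-receptor for class 3 semaphorins that also binds VEGF. It was at 52.3, 54.2 and 32.9 CPM with CRISPRa and at 81.2, 80.7 and 61.7 CPM without the guide. The groups did not overlap, and in each group 1 library, CRISPRa replicate 5 and no-sgRNA replicate 4, was well below its partners. The log2 fold change was -0.70 ± 0.15 (SE), with an edgeR adjusted p of 0.00450, and -0.49 without CRISPRa replicate 5 (edgeR adjusted p 0.0051). Nrp2 stood at 216, 234 and 279.6 CPM against 223, 223 and 202 CPM, with overlap (0.16, edgeR adjusted p 0.219, and 0.05 without CRISPRa replicate 5). Nrp1 accordingly took 29.4% ± 2.01 of the summed neuropilin RPKM in the controls and 19.0% ± 5.66 with CRISPRa (SD, n = 3).

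Plxnd1 (chromosome 6, 115954811 to 115995005, minus strand) encodes a plexin that can bind Sema3e without a neuropilin and is best known from blood vessels. It was at 164, 154 and 123 CPM with CRISPRa and at 208, 221 and 209 CPM without the guide, with every CRISPRa library below every control. Of 5 endothelial markers Kdr and Cldn5 were at 0 counts and Cdh5 was higher with CRISPRa (1.71 against 0.403 CPM, log2 fold change 2.04, edgeR adjusted p 0.0105). Their summed level, most of it Pecam1, was 8.46 to 11.7 CPM with CRISPRa against 10.1 to 13.4 CPM, and its part in the result was not tested. The log2 fold change of -0.55 (SE 0.09) had the lowest adjusted p of all members (edgeR adjusted p 0.000599), and it was -0.43 without CRISPRa replicate 5. Its direct ligand gene Sema3e had counts in only 2 libraries, 4 in CRISPRa replicate 5 and 6 in no-sgRNA replicate 2. The 3 other plexins with the highest levels had overlapping groups. Plxnb2 was at 232, 249.5 and 198 CPM against 231, 247 and 241 CPM, and Plxna1 at 274, 277 and 259.8 CPM against 257, 261 and 205 CPM. Opposite-strand exons cover 10.7% of Plxna1, so its counts are uncertain. Plxna3 was at 244, 235 and 257 CPM against 239, 219 and 164 CPM, a log2 fold change of 0.23, with an edgeR adjusted p of 0.129, that was 0.09 without the lowest control, replicate 4. Without no-sgRNA replicate 2 it passed as higher (0.33, edgeR adjusted p 0.0416). The adjusted p-values of Plxna4, Plxnb1, Plxnb3 and Plxnc1 ran from 0.449 to 0.923.

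Semaphorins changed in both directions, with 1 higher and 2 lower of the 15 tested. Sema6a (chromosome 18, 47235598 to 47368870, minus strand) encodes a transmembrane semaphorin that signals through class A plexins. It stood at 75.3, 77.3 and 63.8 CPM against 100, 95.8 and 102 CPM, without overlap, which gave a log2 fold change of -0.48 ± 0.08 (SE) with an edgeR adjusted p of 0.000834, and -0.39 without CRISPRa replicate 5 (0.0021). Sema4g (chromosome 19, 44989101 to 45003397, plus strand), a transmembrane class 4 member, had nearly equal control values of 40.1, 40.9 and 40.8 CPM and values of 29.8, 32.1 and 17.7 CPM with CRISPRa. Its log2 fold change was -0.63 ± 0.16 (SE), with an edgeR adjusted p of 0.0111, and without CRISPRa replicate 5, the lowest library, it was -0.40 (edgeR adjusted p 0.00667). Sema6d, of the same class as Sema6a, was above the controls in 2 of the 3 CRISPRa libraries, at 109, 108 and 90.9 CPM against 93.8, 95.1 and 89.6 CPM, and did not pass (0.13, edgeR adjusted p 0.274). Without CRISPRa replicate 5 it passed as higher (0.22, edgeR adjusted p 0.0415).

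Sema4f (chromosome 6, 82911885 to 82939769, minus strand), a transmembrane semaphorin found at synapses, had the largest fitted change at the lowest level of all expressed members, 0.0949 ± 0.0390 RPKM in the controls. It had 46, 66 and 33 counts with CRISPRa and 12, 22 and 12 counts without the guide, which gave a log2 fold change of 1.53 ± 0.46 (SE) with an edgeR adjusted p of 0.0310. The lowest CRISPRa library was above the highest control, but the call was lost in 4 of the 6 fits that left out 1 library, namely without CRISPRa replicate 2 (adjusted p 0.0597) or 3 (0.174) and without no-sgRNA replicate 2 (0.0867) or 4 (0.0952). For the more abundant class 4 members Sema4c and Sema4b the groups overlapped. Sema4c was at 66.1, 64.9 and 61.1 CPM against 61.9, 66.3 and 63.0 CPM, and Sema4b at 41.6, 41.6 and 38.2 CPM against 40.7, 42.4 and 42.0 CPM. Opposite-strand exons cover 7.27% of Sema4c, so its counts and its share of the family are uncertain. Sema4d, the ligand of Plxnb1, was at 92.5, 87.9 and 99.6 CPM against 86.3, 77.7 and 80.8 CPM, without overlap, and did not pass (0.18, edgeR adjusted p 0.104). The same held for the secreted Sema3a (0.66, edgeR adjusted p 0.0887) and Sema3g (0.36, edgeR adjusted p 0.132), whose groups did not overlap.

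In the ephrin and Eph system a single gene passed, the receptor Epha7. Epha7 (chromosome 4, 28813131 to 28967499, plus strand) encodes an ephrin-A receptor and had the highest level per length of the Eph genes in the controls. It was at 9.08, 9.34 and 6.32 CPM with CRISPRa and 11.4, 12.8 and 14.8 CPM without the guide, with no overlap, which gave a log2 fold change of -0.67 ± 0.17 (SE) with an edgeR adjusted p of 0.0108, and -0.51 without CRISPRa replicate 5 (0.0362). The call was lost without no-sgRNA replicate 4, the highest library (-0.55, edgeR adjusted p 0.0568). Epha7 made up 40.1% ± 7.33 of the summed Eph RPKM in the controls and 25.6% ± 5.04 with CRISPRa (SD, n = 3). Ephb3 made up 25.1% ± 2.09 in the controls and 29.3% ± 1.81 with CRISPRa (SD, n = 3), where its mean was the higher of these 2. None of the 7 tested ephrins passed in edgeR, and none had an unadjusted p under 0.05 there. DESeq2 and limma-voom called none of them either. The 5 ephrin-A estimates ran from -0.45 for Efna4 to -0.03 for Efna1. Without CRISPRa replicate 5 they were -0.16 for Efna4, -0.02 for Efna3 and 0.09 for Efna1, and Efna1 was also above 0 without no-sgRNA replicate 4 (0.03) and with the gene-length trend removed (0.05). The most abundant, Efna5, was at 97.2, 91.8 and 97.7 CPM against 104, 98.9 and 109 CPM, without overlap (-0.14, edgeR adjusted p 0.187). Opposite-strand exons cover 14.1% of Efna3 and 10.5% of Efna4, so their counts are uncertain too.

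**Figure D3:**
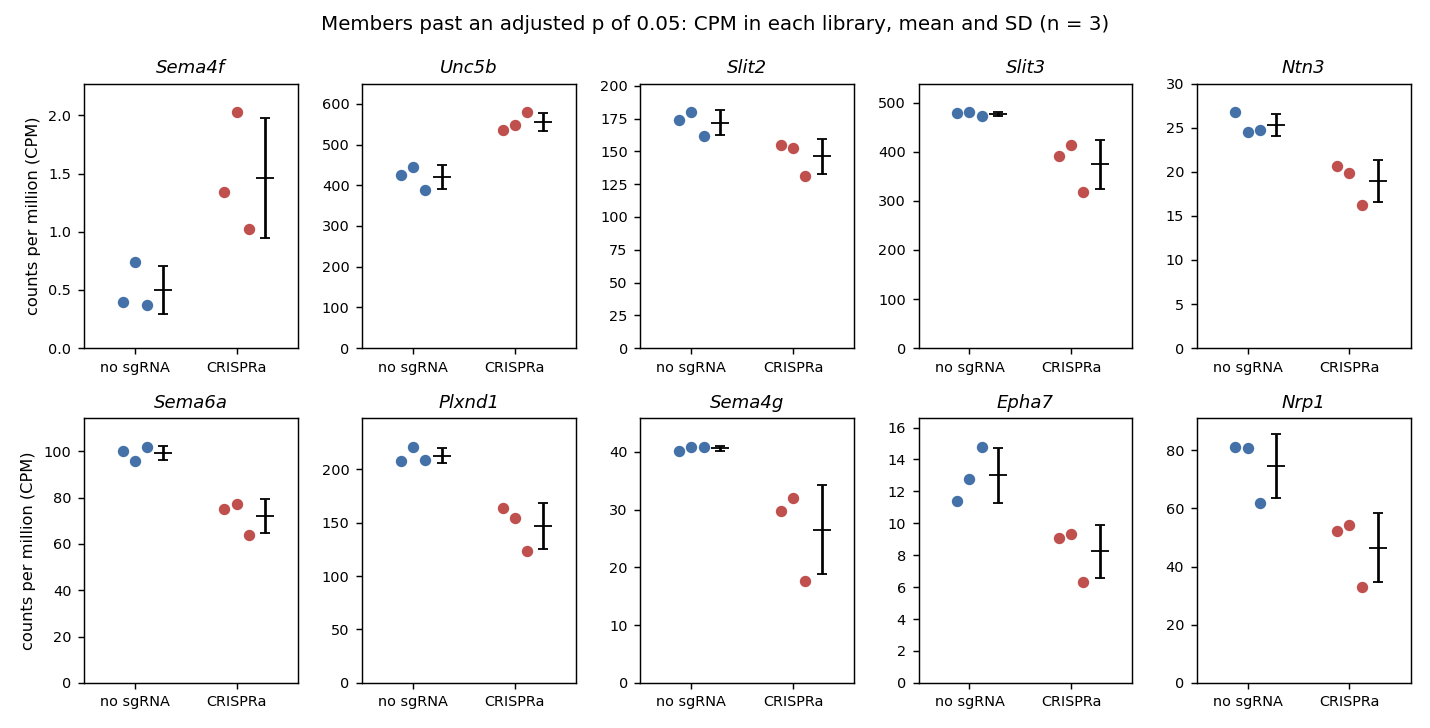
CPM of the 10 members past an adjusted p of 0.05 in each library (points), with the mean and SD of each group (black, n = 3); every vertical axis starts at 0. In all 10 panels the groups do not overlap, which adds no support, since the test on these libraries picked the genes. CRISPRa replicate 5, the right-hand red point, is the lowest CRISPRa library in all 8 genes that fell.

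Over the 46 expressed members the groups did not overlap for 15, 6 higher and 9 lower with CRISPRa, where 38.2% of all genes with a mean of at least 0.5 CPM did not overlap. By role, 20 of 27 expressed ligands had an estimate below 0 (the near-0 estimate of Sema4c turned sign with library-size scaling) and 13 of 19 expressed receptors had an estimate above 0. The median log2 fold change was -0.14 for the 28 tested ligands and 0.13 for the 19 tested receptors. Single libraries moved both medians: the ligand median was -0.03 without CRISPRa replicate 5, and the receptor median was 0.07 without no-sgRNA replicate 4. The fit on the 4 libraries numbered 2 and 3 gave -0.05 and 0.06. As summed RPKM the ligands were at 184, 188 and 161 with CRISPRa against 203, 202 and 204, and the receptors at 257, 264 and 256 against 248, 253 and 219. Slit3 and Unc5b weigh most in these sums. The same 10 members passed under RLE, upper-quartile and library-size scaling, in DESeq2 and in limma-voom. Without CRISPRa replicate 5, 11 members passed, 4 higher and 7 lower, and 9 of them were among the 10. That fit called 2226 of all tested genes, against 2829 with all 6 libraries.

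**Figure D4:**
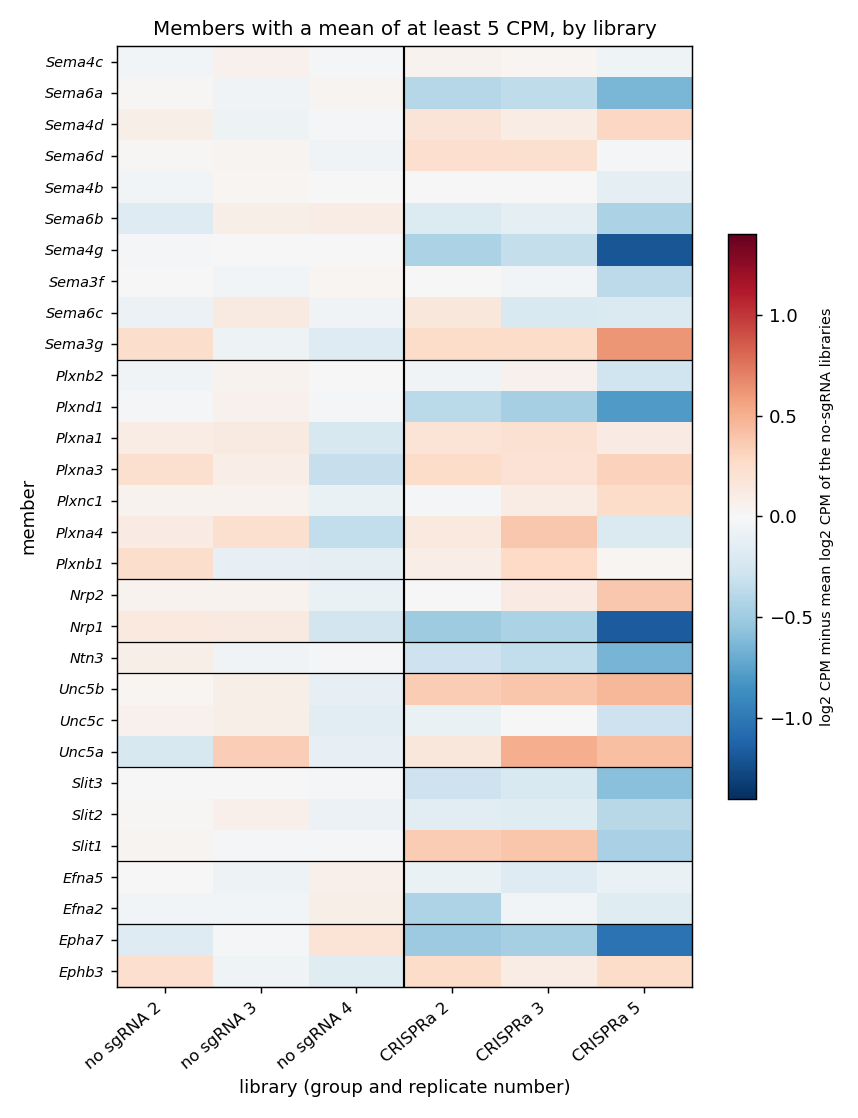
Heat map of the 30 members with a mean of at least 5 CPM: each cell is the log2 CPM of a library minus the mean log2 CPM of the 3 no-sgRNA libraries, red above and blue below, columns are libraries and rows are members grouped by family. Values run from -1.20 to 0.61, and the CRISPRa replicate 5 column holds the deepest blue cells, at Sema4g, Nrp1 and Epha7, and is blue for Slit1 where the other CRISPRa libraries are red.

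In the authors' deposited table, which is named for 8 samples, 14 members had an adjusted p under 0.05, where 28.6% of the genes with a value did. All 10 members called here were among them with the same sign. In the authors' deposited table Unc5b had a log2 fold change of 0.41 (adjusted p 8.31e-14), Plxnd1 of -0.52 (3.11e-10), Sema6a of -0.45 (4.55e-09) and Nrp1 of -0.58 (1.95e-07). The 4 members called in the authors' deposited table alone were Sema4d (0.19), Sema6d (0.17), Plxna1 (0.18) and Efna5 (-0.15, log2 fold changes). The direction of that table is not stated and was read from the 20 interferon-stimulated genes, all positive in it. Which libraries entered it is not stated either, and it is not taken as an independent check.

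Genes that act with these families were compared from a list of 83 co-receptors, adhesion molecules and intracellular mediators. Of the 73 that passed the filter on low counts, 18 (24.7%) passed the test, 12 higher and 6 lower with CRISPRa, against the 18.7% of all tested genes. Among the 14 tested cues and adhesion molecules 3 were higher and 2 lower, and among the 59 tested intracellular genes 9 were higher and 4 lower. The 5 largest increases among the genes that passed were Sdc3, Rnd1, L1cam, Ablim1 and Dpysl3. Sdc3 encodes syndecan-3, a heparan sulfate proteoglycan that binds guidance cues, and was at 205, 202 and 178 CPM against 105, 109.6 and 106 CPM, which gave a log2 fold change of 0.85 ± 0.07 (SE) with an edgeR adjusted p of 6.09e-07. L1cam, an adhesion molecule that associates with neuropilin-1, was at 634, 664 and 667 CPM against 453, 463 and 348 CPM (0.62, edgeR adjusted p 0.000167).

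Rnd1, a small GTPase that binds plexins, stood at 12.6, 13.4 and 17.7 CPM against 8.70, 8.54 and 8.86 CPM (0.73, edgeR adjusted p 0.00298). Dpysl3, a collapsin response mediator protein of the semaphorin pathway, stood at 1366, 1453 and 1344 CPM against 1050.1, 1051 and 953 CPM (0.43, edgeR adjusted p 0.000255). Neo1, which encodes the netrin and RGM receptor neogenin and was singled out after its values were seen because Dcc was not expressed, was at 206, 207 and 216 CPM against 189.5, 177 and 154 CPM (0.26, edgeR adjusted p 0.0198). In each of these 5 genes every CRISPRa library lay above every control, which adds no support because they were picked from genes that passed. The call for Neo1 was lost without CRISPRa replicate 3 (edgeR adjusted p 0.0518), no-sgRNA replicate 3 (0.0604) or no-sgRNA replicate 4 (0.0541). The 5 largest decreases among the genes that passed were Ablim3 (-0.51), Mical2 (-0.42), Ptk7 (-0.34), Abl1 (-0.23) and Dag1 (-0.22, log2 fold changes). Of these, Ablim3 alone passed in all 6 fits that left out 1 library. The number of list genes that passed fell to 11 without CRISPRa replicate 3.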

How the data were processed

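Messenger RNA of Neuro2a cells was sequenced after poly(A) enrichment. Raw counts per gene were deposited by the authors for 6 libraries of the 8 samples in the labels. The count table used here has no column for the remaining samples, CRISPRa 1 and control 5. Per the submitters' processing notes, STAR 2.5.1b, featureCounts and mm10 were used. The annotation, the strand setting and the treatment of multi-mapping reads are not given in the sources used here. Between 73.6% and 75.1% of gene counts from 1 to 10 were even numbers, so counts did not behave as single independent reads. The authors' deposited table of their comparison gives a signal (mean normalized count), log2 fold changes, a test score and p-values. Only its log2 fold changes, their errors and adjusted p-values were used.

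Genes were filtered with filterByExpr, scaled by TMM (factors 0.975 to 1.01) and tested with edgeR 4.0.16's quasi-likelihood test in R 4.3.3, with Benjamini-Hochberg adjustment over 15117 genes and a threshold of 0.05. The SE is the absolute log2 fold change divided by the root of the F statistic. CPM uses library totals. DESeq2 1.42.0, limma 3.58.1 with voom, other scalings and filters, a gene-length correction, a replicate block, other thresholds and leaving out each library were alternatives. Scripts were tested on simulated data. Samples were grouped by the transfection label. A permutation test of 3 against 3 cannot give an exact p below 0.1, so no such test is reported.

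The members and gene lists were chosen with earlier results of these data known. Every member with a mean of at least 0.5 CPM could be named, as could the 5 largest increases and decreases of the pathway list with a mean of at least 1 CPM. The marker lists of myeloid cells, astrocytes and Schwann cells each summed to at most 3.25 CPM in any library. Overlap and shared sequence of members were examined in GENCODE M21. Promoter windows came from RefSeq, where 59 of 69 members had one. Member proteins were not analysed here. Values of some marker genes are not reported here.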

Additional observations from a re-analysis of the deposited data

How the results depend on the processing

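The number of members past the threshold was 10, and it was 10 or 11 under every scaling, filter and tool tried and with the gene-length trend removed. Leaving out 1 library gave 8 to 11. Unc5b, Plxnd1, Nrp1, Sema6a, Sema4g, Ntn3 and Slit3 passed in all of these fits. At an adjusted p of 0.01, 5 members, 7 genes of the pathway list and 1417 of all tested genes passed, against 10, 18 and 2829 at 0.05, which follows from the stricter threshold. Leaving out 1 library gave 11 to 14 for the pathway list, the lowest without CRISPRa replicate 3, and 1987 to 2518 for all tested genes. The cause was not tested. The number of expressed members was 46 without any 1 library, 42 at a mean of 1 CPM and 48 at 0.25 CPM. For the 29 called genes run through these alternatives (the 10 members, the 10 named pathway genes, Neo1 and the 8 genes under other observations) no estimate changed sign. The alternatives for Neo1, Scn2a and those 8, and the medians by role, were added after seeing the data.

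The groups share only the replicate numbers 2 and 3. The differences between libraries 2 and 3 were not correlated between the groups (correlation 0.0045 over 15117 genes). A single such contrast cannot decide whether libraries of the same number shared a batch, and the labels do not say. With the number as a replicate block on those 4 libraries 11 members, 19 pathway genes and 3170 of all tested genes passed. Without the block the same 4 libraries gave 11 members and 2830 genes. Both fits added Sema6d and Slit1 and did not call Epha7, which stood at -0.39 (edgeR adjusted p 0.0526 with the block and 0.0701 without it). Depth limits the lowest members, where 1 count is worth about 0.03 CPM.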

Other observations

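Guidance cues outside the classical families were looked up in lists chosen after the data had been seen. They hold Wnt and planar polarity receptors, hedgehog co-receptors, myelin inhibitors with their receptors, and teneurins with latrophilins. Of 29 genes 19 passed the filter on low counts and 8 passed the test, 4 higher and 4 lower with CRISPRa, against 18.7% of all tested genes. Because the lists were chosen with values known, this count carries no weight beyond its description. Ngfr, the p75 neurotrophin receptor that also acts with the Nogo receptor, averaged 443 CPM in CRISPRa libraries against 321 CPM in controls (log2 fold change 0.45, SE 0.06, edgeR adjusted p 0.000148). Lingo1, its partner in that receptor complex, was lower, at 89.1 against 112 CPM (-0.34, edgeR adjusted p 0.0191). The teneurins, adhesion proteins that match pre- and postsynaptic cells, were split, with Tenm4 at 175 against 121 CPM (0.52, edgeR adjusted p 0.00365) and Tenm3 at 223 against 284 CPM (-0.36, edgeR adjusted p 0.00606).

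Among Wnt and planar polarity receptors Celsr3 was higher, at 101 against 73.3 CPM (0.45, edgeR adjusted p 0.0114, and 0.29 without no-sgRNA replicate 4). Ryk, a Wnt receptor of repelled axons, was lower at 129 against 158 CPM (-0.31, edgeR adjusted p 0.00797), and Vangl2 was lower at 37.5 against 44.4 CPM (-0.26, edgeR adjusted p 0.0376). The hedgehog co-receptor gene Cdon was higher at 238 against 201 CPM (0.23, edgeR adjusted p 0.0469). The Nogo receptor gene Rtn4r and the myelin inhibitor genes Mag and Omg had 0 counts in every library. All values are means over 3 libraries. The calls for Cdon and Vangl2 were each lost in 5 of the 6 fits that left out 1 library, and that for Lingo1 was lost without no-sgRNA replicate 2 or 3.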
